A study of Mus musculus with 12 samples.

Results

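The interleukin receptor genes are those genes of the deposited RNA-seq tables whose symbol is Il followed by a number and r, with *Crlf2* and *Il6st* added if they were found. There were 14 such genes among the 3439 listed genes, of which 13 stood in the table of genes lower in tdTomato+ ILC2s and 1, *Il17rd*, in the table of genes higher in tdTomato+ ILC2s. For comparison, 84.5% of all listed genes were in the lower table and 15.5% in the higher table. The members were chosen by symbol from these tables, so their listing is given as a description. *Crlf2* and *Il6st* were not listed.

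The libraries came from ILC2s, group 2 innate lymphoid cells, sorted from lungs of male mice of the genotype TIGIT-Cre-ERT2:Rosa26-LSL-tdTomato (*Tigit* fm mice). In these mice a tamoxifen-dependent Cre recombinase is made from the *Tigit* locus, so that cells expressing *Tigit* while tamoxifen is present are marked by the red protein tdTomato for good. Both groups, tdTomato- and tdTomato+ ILC2s, came from animals given papain, a protease allergen, in the nose and tamoxifen by mouth, and the labels list 4 RNA libraries of each group and no untreated group. The marker is a record of past *Tigit* promoter activity and not a measure of TIGIT on the cell at the time of sorting. The study did report a subtle correlation of TIGIT with tdTomato, and that tdTomato+ ILC2s kept TIGIT during papain treatment and after it ended. In bulk libraries of this kind, fewer cells that hold a transcript and less of that transcript per cell cannot be told apart.

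Interleukin receptors are built from chains that each recognise a cytokine or pass its signal into the cell. Receptors of the IL-1 family use a cytoplasmic TIR domain and the adaptor MyD88, whereas receptors that contain the common gamma chain signal through JAK kinases and STAT factors. In lung ILC2s, IL-33, IL-25 and TSLP from epithelial or stromal cells are the classical activating signals, and IL-2, IL-7 and IL-9 are known to support survival and growth. ST2 (*Il1rl1*), CD127 (*Il7r*) and CD25 (*Il2ra*) are the surface proteins by which lung ILC2s were gated in the study, so cells of both groups had been selected for these chains as proteins. By flow cytometry the study found comparable ST2 protein on tdTomato- and tdTomato+ ILC2s, whereas the listing of *Il1rl1* used here concerns RNA.

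The value available for each gene was the authors' average log2 CPM, which scales counts to library size, averaged over the libraries of both populations. It measures how abundant the transcripts were across the experiment, and it does not say how the populations differed. As a share of the library, it also depends on the other transcripts. *Gm10800* (16.49) and *Gm10801* (13.22), both listed as higher, had the highest values of all listed genes. The study reported that non-coding transcripts such as major satellite repeats outweighed protein-coding ones in tdTomato+ ILC2s. The part of this composition in the levels and the listing was not tested. No value of a single library is given, so neither depth nor replicate spread is known here, and the values that follow carry no error, interval or test. The size of the difference between the populations is not reported here. The lowest average log2 CPM of any listed gene was 5.00, and a gene that is not listed may have had a lower level or may not have passed the authors' comparison.

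Marker genes of cell types were looked up in the tables, where 13.2% of annotated protein-coding genes were listed as lower and 2.31% as higher. All 14 ILC2 markers were in the lower table, but 4 of them are members themselves (*Il1rl1*, *Il7r*, *Il2ra* and *Il2rg*), 3 of which belong to the gate. The other 10 include *Gata3*, *Rora*, *Id2* and *Thy1*, with average log2 CPM values of 8.79, 8.60, 8.53 and 7.61. A listed gene was detected and passed the authors' comparison, so the listing shows that these transcripts were present, and a gene that is not listed may still have been. Of 7 T cell markers, 1 was listed, *Cd3g*, a chain of the T cell receptor complex, with an average log2 CPM of 6.12 and in the lower table. *Cd3d*, *Cd3e*, *Cd4*, *Cd5*, *Cd8a* and *Trac* were not listed, nor were any of 3 natural killer cell, 3 B cell and 5 alveolar macrophage markers. These lists hold few genes to set against the 13.2%. Cells with lineage markers, T cells included, are left out by the gate of the study. The study also reported quite low RNA levels of lineage markers in its samples, with no statistical difference between them. The part of T cell transcripts in the values of the receptor genes was not tested.

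The regions before the start of *Il1rl1* are shown because this gene had the highest level of the 14 and 2 annotated starts, and those of *Il18rap* and *Il9r* because they are further members that held a GATA word in a window that overlaps no annotated exon. Each sequence holds the 250 bases before the start in RefSeq, build GRCm38.p6, written 5′ to 3′ on the gene's strand. Capitals mark the GATA words, that is GATAA or GATAG after an A or a T, searched on both strands, and the marked words do not overlap one another.
*Il1rl1*, first start, chr1:40429320-40429569, plus strand: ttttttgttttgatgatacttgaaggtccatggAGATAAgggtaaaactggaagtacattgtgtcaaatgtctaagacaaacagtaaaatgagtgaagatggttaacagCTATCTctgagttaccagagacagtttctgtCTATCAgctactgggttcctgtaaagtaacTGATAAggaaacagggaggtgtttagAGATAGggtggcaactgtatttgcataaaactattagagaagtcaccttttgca
*Il1rl1*, second start, chr1:40439379-40439628, plus strand: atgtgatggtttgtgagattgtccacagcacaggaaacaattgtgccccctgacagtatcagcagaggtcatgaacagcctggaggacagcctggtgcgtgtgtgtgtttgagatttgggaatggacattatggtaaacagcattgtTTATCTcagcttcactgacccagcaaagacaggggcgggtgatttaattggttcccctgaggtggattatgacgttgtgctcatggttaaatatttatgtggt
*Il18rap*, chr1:40515112-40515361, plus strand: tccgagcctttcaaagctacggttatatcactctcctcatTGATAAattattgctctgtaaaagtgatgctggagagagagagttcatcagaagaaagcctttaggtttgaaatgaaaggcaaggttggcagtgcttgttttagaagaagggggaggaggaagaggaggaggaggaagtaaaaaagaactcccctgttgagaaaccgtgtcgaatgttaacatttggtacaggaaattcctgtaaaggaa
*Il9r*, chr11:32200280-32200529, minus strand: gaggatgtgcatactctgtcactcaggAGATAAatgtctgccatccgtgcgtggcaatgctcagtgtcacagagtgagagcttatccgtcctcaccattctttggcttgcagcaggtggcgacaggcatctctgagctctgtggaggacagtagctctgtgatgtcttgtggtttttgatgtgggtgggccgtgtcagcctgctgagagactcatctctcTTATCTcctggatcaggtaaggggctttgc

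The window before the first start of *Il1rl1* held 5 GATA words. Of all 32851 promoter windows in the RefSeq table, 14 (0.0426%) held at least 5 and 26.5% held at least 1. The words began 217, 141, 110, 80 and 54 bases before the start, whereas the window of the second start, inside the gene, held 1 word. *Il9r* held 2 words, and 6.4% of all windows held at least 2. *Il18rap* and *Il1r2* each held 1.

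Over the members, 10 of 14 genes had an entry in the RefSeq table, with 11 windows in all, and *Il2rb*, *Il17ra*, *Il10ra* and *Il27ra* had none. Annotated exons covered 151 bases of the window of *Il4ra*, 124 of *Il17rb* and 117 of *Il1r2*. They also covered 86 bases of the window of *Il7r*, 60 of *Il17rd* and 2 of the second start of *Il1rl1*. A GATA word was found in 5 of these 11 windows (45.5%), and both windows of *Il1rl1* are among the 5. The share was 15.4% of the windows of all genes in the lower table and 25.5% of those in the higher table. The windows of *Il7r*, *Il2ra*, *Il2rg*, *Il4ra*, *Il17rb* and *Il17rd* held none of these letters. The windows also differed in base composition, with a median GC content of 49.2% and 4 CpG dinucleotides in the members, and of 61.6% and 18 in all genes of the lower table. Words of the ETS family of factors, searched as CCGGAA and CAGGAA on both strands, were in 5 of the 11 windows (45.5%) and in 40.7% of those of the lower table, and in the members no ETS word overlapped a GATA word. A match is a run of letters and not a measured binding site, and the part of base composition in these shares was not tested.

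*Il1rl1* (ENSMUSG00000026069), the receptor for IL-33, had the highest level of the interleukin receptor genes. Its average log2 CPM was 9.98, which corresponds to 1007 CPM. It ranked 23rd of the 3439 listed genes, with 99.3% of them below it. *Il7r* followed with an average log2 CPM of 8.96 (497 CPM) and *Il2ra* with 8.61 (390 CPM). These 3 chains, the ones used in the gate, stood apart from the other 11 members, whose average log2 CPM lay between 5.15 and 7.22.

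**Figure D1:**
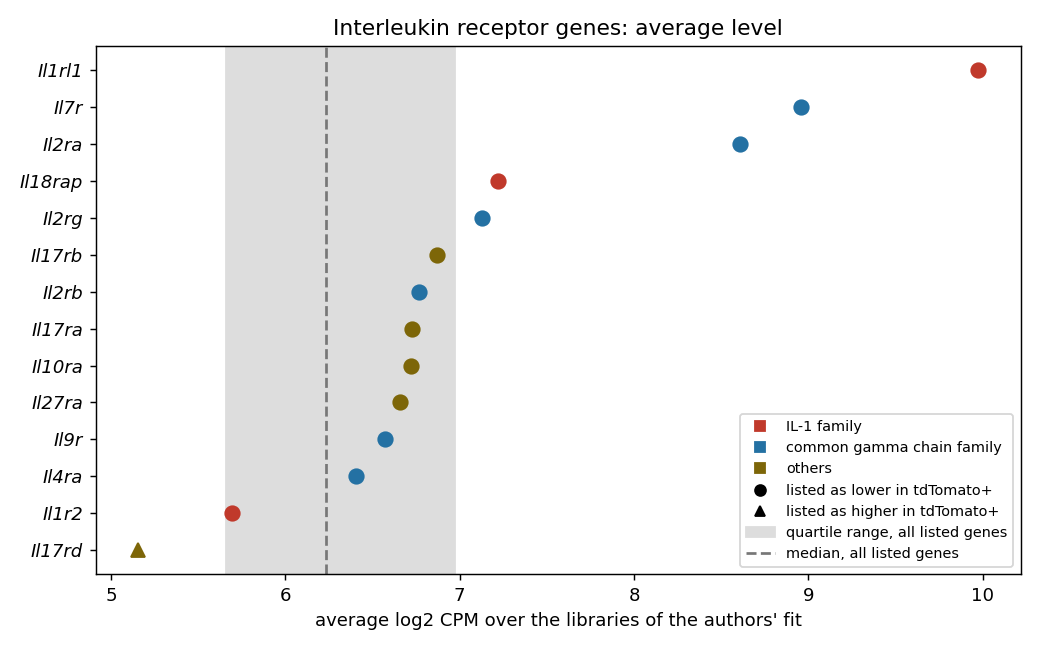
Average log2 CPM of the 14 interleukin receptor genes over the libraries of both populations (x axis, one point per gene), with colours for receptor groups and a triangle for the gene listed as higher in tdTomato+ ILC2s. *Il1rl1*, *Il7r* and *Il2ra* lie at 8.61 or above, and 8 of the other genes lie in the quartile range of all listed genes, drawn as a grey band from 5.66 to 6.97.

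The levels of most other members lay around or above the middle of the listed genes. The median over the 14 members was 6.75 on the average log2 CPM scale, and that over all listed genes was 6.23. *Il18rap* (7.22) and *Il2rg* (7.13) were followed by a close row of *Il17rb* (6.87), *Il2rb* (6.77), *Il17ra* (6.73), *Il10ra* (6.72), *Il27ra* (6.66), *Il9r* (6.57) and *Il4ra* (6.41). No spread is known for these values, so the order within this row is not resolved. *Il1r2* (5.69) and *Il17rd* (5.15) had the lowest levels.

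Because long transcripts yield more reads, levels were compared between genes as CPM per kb of exon. On this scale the order began with *Il1rl1* at 146, *Il7r* at 107 and *Il2ra* at 68.3 CPM per kb of exon. *Il2rg*, which has the second shortest exonic length of the members (2387 bases), came next with 58.5 CPM per kb. The median of the 14 members was 28.0 CPM per kb of exon, and that of the listed genes with a known length was 13.7. *Il17rd* was last with 3.24 CPM per kb, below *Il17ra* with 12.2.

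**Figure D2:**
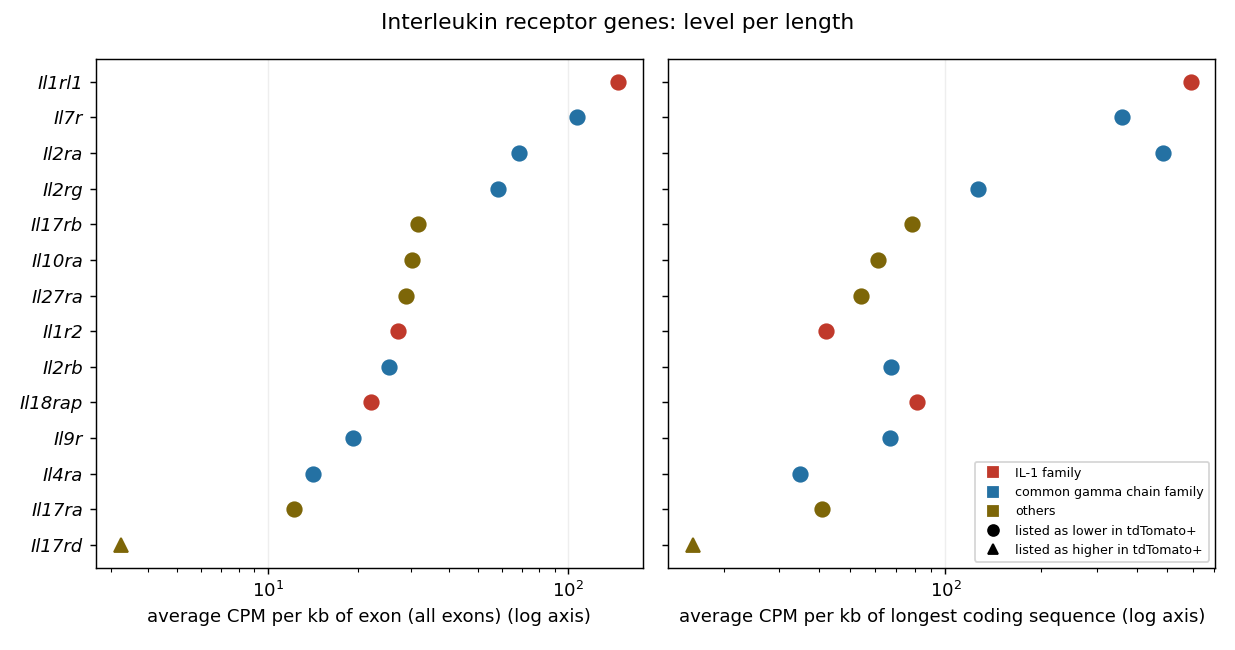
Average CPM per kb of the union of all exons (left) and per kb of the longest coding sequence (right) for the 14 interleukin receptor genes, both on log axes, with genes in the order of the left panel. *Il1rl1* is first and *Il17rd* last in both panels, while *Il7r* and *Il2ra* exchange places and the middle of the order changes with the length used.

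With the longest coding sequence as the length, *Il1rl1* was again first (592 CPM per kb of coding sequence), followed by *Il2ra* (485), *Il7r* (361) and *Il2rg* (126). The gap behind the 3 gated chains was therefore wider on this scale than per kb of exon. Of the 14 genes, *Il1rl1*, *Il2rg* and *Il17rd* kept their place in the order under both lengths.

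The genes were then set against all annotated mouse genes that fit the symbol rule. GENCODE M21 holds 43 such protein-coding genes, of which 13 (30.2%) were listed as lower in tdTomato+ ILC2s, 1 (2.33%) as higher and 29 were not listed. The 43 include *Il1rn*, a secreted antagonist of the IL-1 receptor and not a receptor chain, and *Il11ra2*, which were placed in no group and not listed, so the 3 groups hold 41 genes. Over all 21951 annotated protein-coding genes, 13.2% were listed as lower and 2.31% as higher. Many annotated genes may be silent in ILC2s, and the tables do not separate a silent gene from one that did not pass, so these shares describe the listing only.

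**Figure D3:**
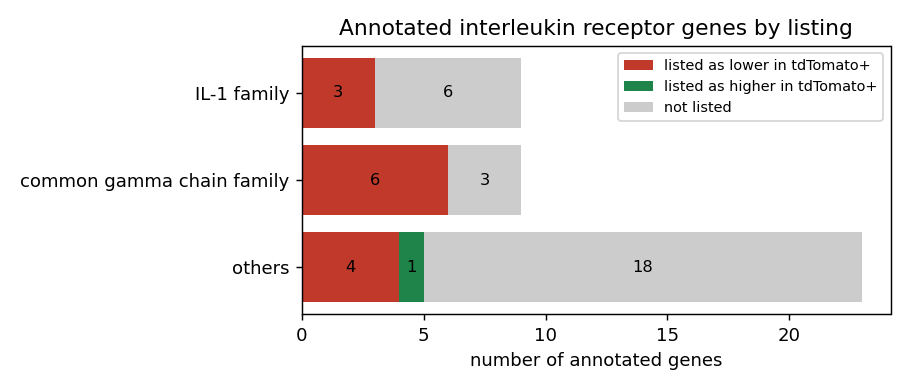
Number of annotated interleukin receptor genes (x axis) in each of 3 receptor groups, divided by listing in the deposited tables. In the common gamma chain family 6 of 9 genes are listed as lower, in the IL-1 family 3 of 9, and among the others 4 of 23, with 1 further gene listed as higher.

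Beside 13.2% of annotated protein-coding genes listed as lower, the common gamma chain family had 6 of 9 genes (66.7%) listed, all 6 in the lower table. They were the shared chain *Il2rg* itself, the alpha and beta chains of the IL-2 receptor, *Il2ra* and *Il2rb*, and the ligand-binding chains of the receptors for IL-7, IL-9 and IL-4, *Il7r*, *Il9r* and *Il4ra*. *Il15ra*, *Il21r* and *Crlf2*, the TSLP-binding chain that pairs with *Il7r*, were not listed. Per kb of exon, *Il2rg* (58.5 CPM) exceeded *Il9r* (19.2 CPM) 3.04-fold and *Il4ra* (14.1 CPM) 4.14-fold, and *Il7r* exceeded *Il2rg* 1.82-fold. Per kb of coding sequence these ratios were 1.89, 3.62 and 2.86. Within the IL-2 receptor, *Il2ra* and *Il2rg* were 2.69-fold and 2.3-fold above *Il2rb* (25.4 CPM per kb of exon), and per kb of coding sequence 7.21-fold and 1.87-fold. Of the exonic bases of *Il2rg*, 30.5% are shared with *Gm20489*, an annotated gene on the same strand, so its count could be split between them and its level is uncertain.

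The 6 listed genes of the common gamma chain family lie on 5 chromosomes (coordinates in GRCm38). *Il2rg* lies at chrX:101264378-101268255 on the minus strand, *Il2ra* at chr2:11642807-11693193 on the plus strand, and *Il7r* at chr15:9505788-9530176 on the minus strand. *Il2rb* lies on the same chromosome as *Il7r*, at chr15:78479256-78495271. The study's methods name GRCm39 for counting and the submitters' processing notes name mm10, the same build as GRCm38, and the tables give no positions.

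Where 13.2% of annotated protein-coding genes were listed as lower, the IL-1 family had 3 of 9 genes (33.3%) listed, all in the lower table. Besides *Il1rl1* they were *Il18rap*, the accessory chain of the IL-18 receptor, and *Il1r2*, a decoy that binds IL-1 without passing a signal. Per kb of exon *Il1rl1* exceeded *Il18rap* (22.1 CPM) 6.6-fold. *Il1r2* had a low average log2 CPM (5.69) but the shortest exonic length of all members, 1908 bases, and thus 27.1 CPM per kb of exon. *Il1rap*, the accessory chain that ST2 needs to respond to IL-33, and *Il18r1*, the ligand-binding partner of *Il18rap*, were not listed, nor were *Il1r1*, *Il1rl2*, *Il1rapl1* and *Il1rapl2*.

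All 3 listed genes of the IL-1 family lie in 1 cluster on chromosome 1, on the plus strand. From the start of *Il1r2* to the end of *Il18rap* (chr1:40074079-40551705, GRCm38) the cluster spans 478 kb and holds 6 protein-coding genes, all of them receptor chains of this family. The listed genes did not lie side by side. *Il1r1* and *Il1rl2*, which follow *Il1r2*, were not listed, and *Il18r1*, which lies between *Il1rl1* (chr1:40429570-40465415) and *Il18rap* (chr1:40515362-40551705), was not listed either. In the annotation *Il18r1* starts at 40465552, directly behind the end of *Il1rl1*.

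**Figure D4:**
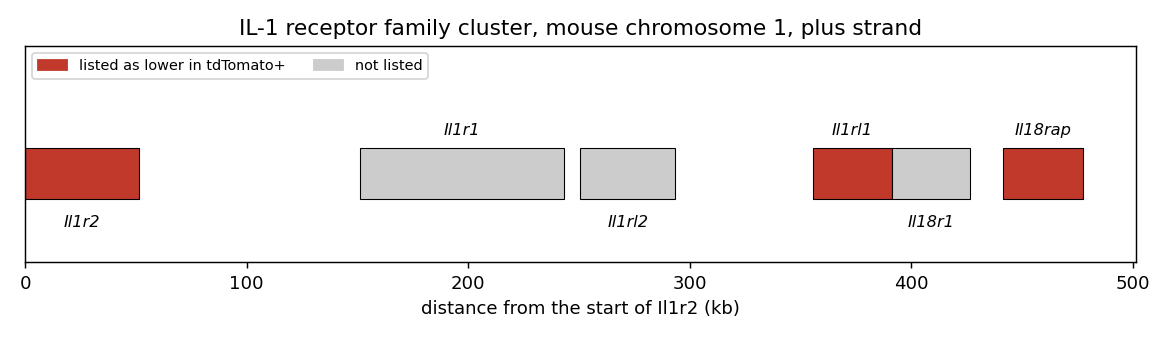
The 6 genes of the IL-1 receptor family cluster drawn to scale along chromosome 1 (x axis, kb from the start of *Il1r2*), red where a gene is listed as lower in tdTomato+ ILC2s and grey where it is not listed. *Il1r2*, *Il1rl1* and *Il18rap* are red, and the other 3 genes lie between them.

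Among the other chains, 4 of 23 genes (17.4%) were listed as lower, *Il17rb*, *Il17ra*, *Il10ra* and *Il27ra*, and *Il17rd* (4.35%) as higher. Over all annotated protein-coding genes these shares were 13.2% and 2.31%, so the share of lower genes in this group was near that of all genes. *Il17rb* and *Il17ra* together form the receptor for IL-25. Their levels were 31.6 and 12.2 CPM per kb of exon, so *Il17rb*, which binds IL-25, was 2.58-fold above *Il17ra*, the chain shared by several IL-17 receptors (1.91-fold per kb of coding sequence). *Il10ra*, the ligand-binding chain for IL-10, and *Il27ra*, that for IL-27, are receptors of cytokines known to restrain ILC2s. They had 30.2 and 28.9 CPM per kb of exon, close to *Il17rb*. *Il10rb* and *Il6st*, their signalling partners, were not listed, and neither were *Il5ra*, *Il13ra1*, *Il6ra*, *Il12rb1*, *Il12rb2* and *Il23r*.

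Read by receptor rather than by chain, 15 receptors with 2 or 3 chains were looked up, chosen because each has at least 1 listed chain. In 5 of them every chain was listed as lower, namely the IL-25 receptor and, with *Il2rg* as a shared chain, the IL-2, IL-7 and IL-9 receptors and the type I receptor for IL-4. In the other 10 a chain was not listed, *Il1rap* for IL-33, *Il18r1* for IL-18, *Crlf2* for TSLP, *Il10rb* for IL-10, *Il6st* for IL-27, *Il15ra* for IL-15, *Il21r* for IL-21, *Il13ra1* for the type II receptor of IL-4 and IL-13, *Il17rc* for IL-17A and *Il17re* for IL-17C. Receptors that share chains are not independent, and no share over all features can be set beside this count. The direction of the unlisted chains is not known from the tables.

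*Il17rd* (ENSMUSG00000040717), also known as Sef, is an inhibitor of growth factor signalling that is related to the IL-17 receptors. It was the only member in the higher table, with an average log2 CPM of 5.15, close to the lowest value listed (5.00), and 5.55% of listed genes were below it. *Il17rd* was also the longest member, with 10985 exonic bases, and the next longest was *Il17ra* with 8662. The median exonic length was 4663 bases in the 13 members listed as lower, 5194 in all genes of the lower table and 10481.5 in all genes of the higher table. Its 3.24 CPM per kb of exon lay under the median of 4.54 of the higher table, but per kb of coding sequence its 16.1 CPM lay above the median of 14.8, so this direction depends on the length used. *Il17rd* lies at chr14:27038941-27107286 and *Il17rb* at chr14:29996135-30008896 (GRCm38), on opposite strands. The part of exonic length in this listing was not tested.

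**Figure D5:**
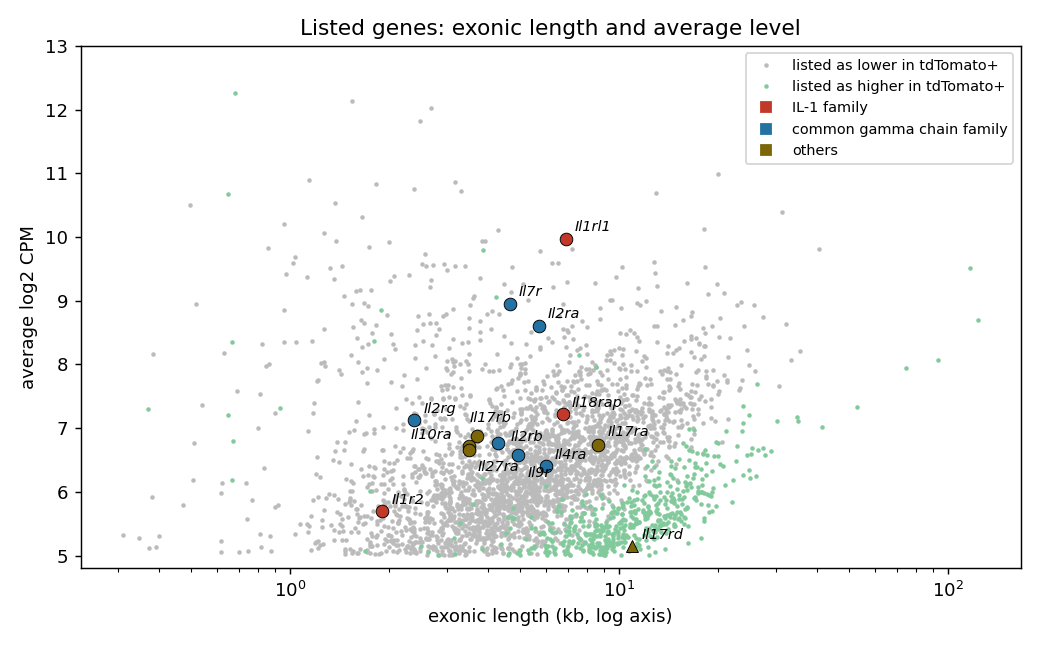
Exonic length (x axis, kb, log axis) against average log2 CPM (y axis) of the listed genes with a known length, grey for those lower and green for those higher in tdTomato+ ILC2s, with the 14 interleukin receptor genes as larger symbols. *Il17rd* lies at 5.15 among the long genes of the higher table, and the other 13 lie among the grey points at 1908 to 8662 exonic bases. The axis leaves out 2 genes of the higher table with an average log2 CPM above 13.

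In average log2 CPM the listed genes nearest to *Il1rl1* were *Serinc3* (9.95), *Rpl5* (9.94), a protein of the large ribosomal subunit, and the mitochondrial gene *mt-Nd4* (9.93), all in the lower table. This likeness rests on 1 value per gene over the pooled libraries. Per kb of exon, all 3 were higher than *Il1rl1*, with 257, 250.4 and 710 CPM.

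The chains signal through a small set of shared proteins, and 23 of these partners were looked up, of which 12 were in the lower table and 0 in the higher, where 13.2% and 2.31% of annotated protein-coding genes stood. All 4 JAK kinases were in the lower table, with average log2 CPM values of 8.60 (*Jak1*), 7.95 (*Jak2*), 7.05 (*Jak3*) and 5.92 (*Tyk2*). *Jak3*, which binds the common gamma chain, had 24.8 CPM per kb of exon and *Jak1* had 53.6. Of 6 STAT factors, 5 were in the lower table, with *Stat6*, the factor used by the IL-4 receptor, at 32.8 CPM per kb of exon and *Stat5b*, used by the IL-2 and IL-7 receptors, at 12.7. *Stat5a* was not listed. Of 4 inhibitors of cytokine signalling, only *Cish* was listed, in the lower table (18.0 CPM per kb of exon).

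On the side of the IL-1 and IL-17 receptors, 2 of 9 adaptors and regulators were in the lower table, few genes to set against the 13.2% of annotated protein-coding genes. They were the kinase *Irak1*, with 13.8 CPM per kb of exon, and *Traf3ip2*, the adaptor Act1 of the IL-17 receptors, with 9.97. *Myd88*, *Irak2*, *Irak3*, *Irak4*, *Traf6*, *Tollip* and *Sigirr* were not listed.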

How the data were processed

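RNA was sequenced from tdTomato- and tdTomato+ lung ILC2s. After quality control with FASTP, the authors used STAR for alignment to GRCm39, featureCounts with the Ensembl annotation for counting, and edgeR for the comparison, whereas the submitters' processing notes name the build mm10. Tool versions and the library normalization are not given in the sources used here. The 2 deposited tables hold an average log2 CPM of each gene, calculated by the authors over the libraries of their fit, for genes that passed their comparison. The tables also hold the fold change, likelihood ratio, p-value and false discovery rate of the authors' own comparison, and these columns were not used. Whether a gene was listed as lower or higher was taken from the table it stood in.

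The tests planned for values of single libraries (limma) were not run, because the tables hold none. Depth per library is unknown. Average log2 CPM was converted to CPM and divided by the union of exons or by the longest coding sequence in GENCODE M21 (GRCm38), joined by Ensembl identifier (3437 of 3439 listed genes). All members were named. Promoter windows were taken from RefSeq. Members, receptor pairs and lists were chosen with earlier results of these data known. Ranks, lengths and word searches were tested on simulated data. Python 3.11.15, numpy 2.4.6, pandas 2.3.3 and matplotlib 3.10.9 were used. Alternatives were the length, a higher limit on the average level and leaving out the decoy receptor. ATAC-seq data of both populations were not used here.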

Additional observations from a re-analysis of the deposited data

How the results depend on the processing

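The number of listed interleukin receptor genes was 14, and 13 without the decoy receptor *Il1r2*. With the limit on the average log2 CPM raised to 6, 12 of the 14 genes were left, and 59.8% of all listed genes passed this limit. With the limit raised to 7, 5 were left (*Il1rl1*, *Il7r*, *Il2ra*, *Il18rap* and *Il2rg*), and 24.4% of all listed genes passed. The members left at either limit were all in the lower table. The only member of the higher table, *Il17rd*, is lost at both limits. The median level over the members was 28.0 CPM per kb of exon and 67.1 CPM per kb of coding sequence, a change that follows from the shorter length.

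No paired analysis was possible because no value of a single library is given. For the same reason the alternatives on the pseudocount, the filter on low values and the leaving out of each replicate were not run, and the precision of every level is unknown. Counts of overlapping genes are a further limit, since the use of strand in counting is not given in the sources used here. *Il2rg* shares 30.5% of its exonic bases with *Gm20489* on the same strand, *Il4ra* shares 9.51% with the antisense gene *Gm44876*, and *Il17rb* shares 3.8% with *Actr8* on the other strand.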

Other observations

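Of 11 further cytokine receptor chains outside the symbol rule, 4 were listed as lower in tdTomato+ ILC2s and 2 as higher, beside 13.2% and 2.31% of annotated protein-coding genes. The lower ones were *Tgfbr2*, a receptor for TGF-β (average log2 CPM 7.87, 28.5 CPM per kb of exon), the interferon gamma receptor chains *Ifngr1* (30.7 CPM per kb of exon) and *Ifngr2* (10.6), and the type I interferon receptor chain *Ifnar1* (15.3). The higher ones were *Osmr* and *Lifr*, the receptors for oncostatin M and leukemia inhibitory factor, with average log2 CPM values of 5.43 and 5.44. Per kb of exon they had 3.55 and 4.04 CPM. Like *Il17rd*, both are long, with 12113 and 10776 exonic bases, and the part of length in their listing was not tested. Their usual signalling partner *Il6st* was not listed, nor were *Csf2ra*, *Csf2rb*, *Csf2rb2*, *Ifnar2* and *Tgfbr1*.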
